A study of Mus musculus with 24 samples.

Results

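The aryl hydrocarbon receptor system was described here by 6 genes, taken by their symbols from the 25844 genes of the series. They were the receptor (Ahr), its dimerization partner (Arnt), its repressor (Ahrr), the ADP-ribosyltransferase that marks it for removal (Tiparp), and the cytochrome P450 genes Cyp1a1 and Cyp1b1. Their expression was measured by sequencing of poly-A RNA from forelimb buds of CD1 mouse embryos at gestation day 13, explanted and kept in culture. The control groups received the solvent DMSO alone, for 3 h or 24 h. The treated groups received tert-butylphenyl diphenyl phosphate (BPDP) in DMSO, at 1 or 10 µM, for the same times. BPDP is an organophosphate ester flame retardant and plasticizer. There were 4 libraries in each of the 6 groups, 24 in all, and no group carried a genetic change. Separate litters or cultures are not stated for the replicates in the labels, so p-values measure the spread between these libraries, which may in part be technical.

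The receptor rests in the cytoplasm, in a complex that includes HSP90, p23 (the product of Ptges3) and the kinase SRC. A ligand, such as a dioxin, a planar aromatic hydrocarbon or a tryptophan metabolite, moves it to the nucleus, where it pairs with ARNT and binds xenobiotic response elements. Cyp1a1 and Cyp1b1 code for enzymes that oxidize many of these ligands and are switched on in this way. Ahrr and Tiparp are also receptor targets, and both feed back: AHRR competes for ARNT and for the element, and TIPARP adds ADP-ribose to the receptor. Cyp1b1 is also expressed in embryonic mesenchyme without any added ligand.

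The promoters of the 4 target genes are shown because these are the genes in which a response to a receptor ligand would be read. RefSeq (GRCm38.p6) gave a window of 300 bases, from 250 before to 50 after the start of the gene, for 5 of the 6 members, and none was found for Ahr. Capitals mark the pentamer GCGTG, the core of the xenobiotic response element, or CACGC, the same core on the opposite strand. Each window is printed 5′ to 3′ on the strand of its gene. The windows are Cyp1a1 at chr9:57697363-57697662 (plus strand), Cyp1b1 at chr17:79715012-79715311 (minus strand), Ahrr at chr13:74292282-74292581 (minus strand) and Tiparp at chr3:65528197-65528496 (plus strand).
Cyp1a1: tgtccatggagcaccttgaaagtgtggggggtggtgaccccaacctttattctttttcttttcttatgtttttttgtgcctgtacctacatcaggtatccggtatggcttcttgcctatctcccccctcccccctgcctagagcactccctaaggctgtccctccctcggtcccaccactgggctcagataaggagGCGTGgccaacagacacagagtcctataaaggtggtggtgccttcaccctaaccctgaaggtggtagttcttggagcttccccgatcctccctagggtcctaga
Cyp1b1: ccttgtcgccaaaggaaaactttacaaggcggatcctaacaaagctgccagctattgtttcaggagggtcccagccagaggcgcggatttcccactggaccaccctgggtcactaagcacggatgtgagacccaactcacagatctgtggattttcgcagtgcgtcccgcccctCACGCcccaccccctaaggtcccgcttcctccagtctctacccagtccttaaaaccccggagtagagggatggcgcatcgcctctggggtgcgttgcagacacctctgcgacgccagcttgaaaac
Ahrr: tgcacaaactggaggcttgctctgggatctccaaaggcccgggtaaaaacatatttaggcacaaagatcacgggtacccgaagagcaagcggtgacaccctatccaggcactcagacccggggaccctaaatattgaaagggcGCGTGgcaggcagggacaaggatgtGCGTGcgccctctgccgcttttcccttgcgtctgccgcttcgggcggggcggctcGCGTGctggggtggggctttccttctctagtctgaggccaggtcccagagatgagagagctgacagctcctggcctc
Tiparp: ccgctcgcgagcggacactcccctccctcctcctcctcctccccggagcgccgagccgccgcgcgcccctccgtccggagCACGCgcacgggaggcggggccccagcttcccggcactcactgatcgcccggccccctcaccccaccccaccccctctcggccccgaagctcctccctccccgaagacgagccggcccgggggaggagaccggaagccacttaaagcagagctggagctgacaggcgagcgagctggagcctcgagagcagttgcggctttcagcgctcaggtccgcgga

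The core was searched on both strands, and a longer form, TNGCGTG, which contains it, was searched in the same way. Ahrr held 3 matches, starting at positions -107, -82 and -27 from the start of the gene, and the last lay within the longer form. Cyp1a1 held 1, at position -54. Cyp1b1 held 1 on the opposite strand, from -76 to -72, and Tiparp held 1 on the opposite strand, from -170 to -166. The window of Arnt (chr3:95434140-95434439, plus strand) held 1, at -29. The core occurred in 32.4% of the 32851 promoter windows of this length, the longer form in 5.07%, and 3 or more cores in 3.91%. A match of these letters is a description of the window and does not show a bound site. Bases outside the windows were not searched, so the counts do not rank the genes by their elements.

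Library totals ranged from 14165947 to 20823058 counts. Levels are given as CPM, counts scaled to a library total of 1000000, and fold changes come from edgeR's quasi-likelihood test with TMM scaling and Benjamini-Hochberg adjustment over all genes tested. A gene was called when its adjusted p was under 0.05. All 6 members passed the filter on low counts in every fit. The limb mesenchyme markers, 8 of 8 detected, summed to between 1003 and 1564 CPM per library, and the 4 hepatocyte markers to between 0.618 and 17.1 CPM. Xist was under 1 CPM in 4 libraries (3 h controls 1 and 2, 1 µM at 24 h replicate 3 and 10 µM at 24 h replicate 3) and at least 113.0 CPM in the rest, so within these 3 groups the libraries were not all repeats of 1 RNA sample. Within some groups replicates 1 and 2 differed from replicates 3 and 4, and values within each pair of replicates are given beside the main results. Within replicates 1 and 2, the 3 h controls had Xist under 1 CPM and the libraries compared with them did not. The part of this in such values was not tested.

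All 6 genes were detected in all 24 libraries. Per kilobase of gene length, Arnt was the most abundant, with group means from 26.1 to 29.6 CPM per kb. Tiparp had group means of 6.05 to 7.86 CPM per kb, Cyp1b1 of 2.48 to 10.6 and Ahr of 2.28 to 3.26. Cyp1b1 lay above Tiparp at 24 h with 1 µM (10.5 against 6.90 CPM per kb) and with 10 µM (10.6 against 7.86), and below it in the other groups. Cyp1a1 had group means of 0.723 to 5.55 CPM per kb and Ahrr of 0.675 to 1.79. The order of the group means was led by 10 µM at 24 h for Ahrr, Cyp1b1 and Tiparp, by the 24 h control for Ahr, by 10 µM at 3 h for Arnt and by 1 µM at 24 h for Cyp1a1. Neighbours in that order overlapped in their libraries, except 1 µM at 3 h over 10 µM at 24 h for Ahr, the 3 h control over 1 µM at 3 h for Ahrr, and 1 µM over 10 µM at 3 h for Cyp1b1. Within the 6 group means, Cyp1b1, Cyp1a1 and Tiparp were lowest with 10 µM at 3 h.

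**Figure D1:**
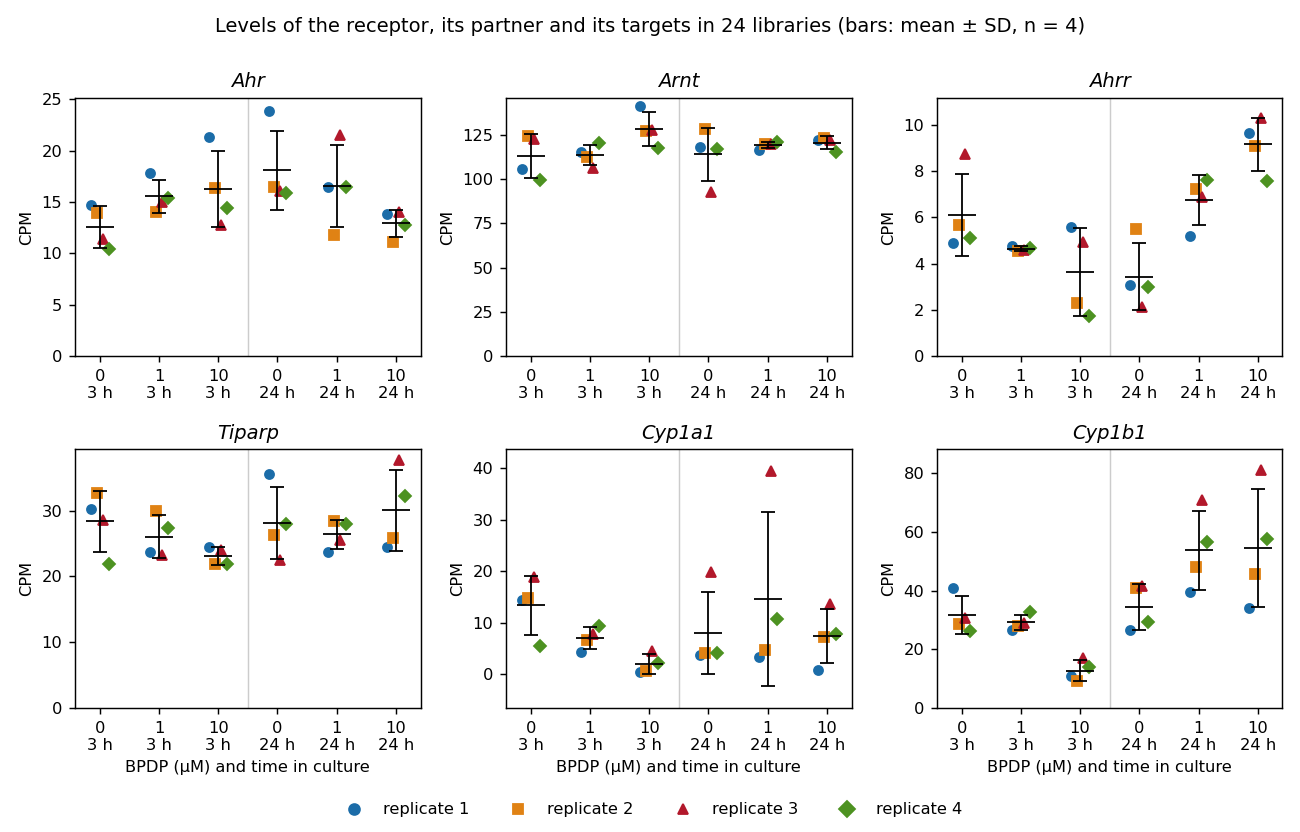
CPM of each of the 6 genes in the 24 libraries, by BPDP concentration (0, 1 or 10 µM) and time in culture; points are libraries, marked by replicate number, and black bars are the mean ± SD of 4 libraries. Cyp1b1 was lowest with 10 µM at 3 h (9.04 to 16.9 CPM), Ahrr was highest with 10 µM at 24 h (7.57 to 10.3 CPM), and Arnt lay between 92.9 and 141.0 CPM throughout.

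After 3 h with 10 µM BPDP, the level of Cyp1b1 lay below that of every control library, with an adjusted p just above the threshold, and Cyp1a1 lay below every control library with a wide spread. The mean of Cyp1b1 was 12.7 ± 3.49 CPM (SD, n = 4) against 31.6 ± 6.51 in controls, and that of Cyp1a1 1.89 ± 1.92 against 13.3 ± 5.66. Ahrr and Tiparp had lower means as well, and Ahr and Arnt higher ones. None of the 6 was called by edgeR at an adjusted p of 0.05, beside 0.00644% of all genes tested, 1 of 15520. At an unadjusted p under 0.05 there were 4 of 6, beside 15.5% of all genes. DESeq2 called 3 (Cyp1b1, Cyp1a1 and Tiparp), beside 4.06% of the 11086 genes to which it gave an adjusted p. Blocked by replicate number, edgeR called 1 (Cyp1b1), beside 2.16% of all genes.

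Cyp1b1 (ENSMUSG00000024087, chr17:79706953-79715041, minus strand, mm10) codes for an enzyme that hydroxylates oestrogens, retinoids and polycyclic hydrocarbons. In controls at 3 h, replicates 1 to 4 had 41.0, 28.6, 30.8 and 26.1 CPM. With 10 µM they had 10.9, 9.04, 16.9 and 14.1 CPM. The highest treated library lay well below the lowest control, so the groups did not overlap. The log2 fold change was -1.39 (SE 0.195, 95% interval -1.81 to -0.96), which is 2.62-fold lower, with an edgeR adjusted p = 0.0670. The residuals of same-numbered libraries correlated at 0.106 to 0.279 in this comparison, but replicates 1 and 2 correlated more with a library of another number (0.349 and 0.294). With the replicate number as a block Cyp1b1 was called (-1.40, adjusted p = 0.00982), beside 2.16% of all genes. Within replicates 1 and 2, where Xist was under 1 CPM in controls only, the log2 fold change was -1.86 (adjusted p = 0.00395). Within replicates 3 and 4 it was -0.95 (adjusted p = 0.0299). The gene was also called by DESeq2 (adjusted p = 6.16e-09), and by edgeR without control replicate 1 (-1.24, adjusted p = 0.0292) or without 10 µM replicate 3 (-1.55, adjusted p = 0.00712). Over all 18 alternatives its log2 fold change stayed between -1.86 and -0.95, with adjusted p-values from 6.16e-09 to 0.185, and 9 of them called it. The authors' deposited table gives Cyp1b1 a log2 fold change of -0.927 with an adjusted p of 6.57e-09.

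Cyp1a1 (ENSMUSG00000032315, chr9:57697613-57703822, plus strand) codes for the P450 enzyme whose induction is the usual readout of receptor activation. Replicates 1 to 4 of the 3 h controls had 14.3, 14.8, 18.9 and 5.42 CPM. With 10 µM they had 0.403, 0.505, 4.52 and 2.15 CPM, from 7, 10, 64 and 31 counts. All treated libraries lay below all controls, and replicates 1 and 2 lay far below replicates 3 and 4. Set against the control of the same number, the level was 35.4-fold and 29.3-fold lower in replicates 1 and 2, and 4.17-fold and 2.52-fold lower in replicates 3 and 4. Its log2 fold change was -2.92 (SE 0.747, 95% interval -4.68 to -1.15), with an unadjusted p = 0.00590 and an adjusted p = 0.153 in edgeR. Within replicates 1 and 2, where Xist was under 1 CPM in controls only, the gene was called (-5.01, adjusted p = 7.14e-06). Within replicates 3 and 4 it was not called (-1.91, adjusted p = 0.318). DESeq2 called it with an adjusted p of 0.0217 (-2.86), and the authors' deposited table gives it a log2 fold change of -0.245 with an adjusted p of 0.0731. That deposited value is far nearer 0 than the edgeR value from the same counts, so their sizes are not like measures.

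Ahrr (ENSMUSG00000021575, chr13:74211118-74292331, minus strand) had 4.91, 5.67, 8.73 and 5.11 CPM in the 3 h controls and 5.59, 2.32, 4.94 and 1.73 CPM with 10 µM. Treated replicates 1 and 3 lay within the range of the controls, and replicates 2 and 4 below it. Its log2 fold change was -0.82 (SE 0.321, edgeR adjusted p = 0.242). Tiparp (ENSMUSG00000034640, chr3:65528410-65555145, plus strand) had 30.3, 32.7, 28.5 and 21.9 CPM in controls and 24.5, 21.9, 24.0 and 21.9 CPM with 10 µM. The treated libraries were close together and 3 of 4 controls lay above them. Its log2 fold change was -0.36 (SE 0.104, edgeR adjusted p = 0.138), and DESeq2 called it with an adjusted p of 0.0440.

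Ahr (ENSMUSG00000019256, chr12:35497974-35535038, minus strand) had 14.7, 13.9, 11.4 and 10.4 CPM in the 3 h controls and 21.3, 16.4, 12.8 and 14.4 CPM with 10 µM. Each treated library was above the control of its number, but the groups overlapped. Its log2 fold change was 0.29 (SE 0.154, edgeR adjusted p = 0.375). Arnt (ENSMUSG00000015522, chr3:95434388-95497240, plus strand), which also serves the hypoxia-inducible factors as a partner, had 105.8, 124.3, 122.4 and 99.4 CPM in controls and 141.0, 126.9, 127.4 and 117.5 CPM with 10 µM, overlapping groups with a log2 fold change of 0.12 (SE 0.0698, edgeR adjusted p = 0.444).

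At 3 h none of the lists of cell type markers had a gene called by edgeR with 10 µM, beside 0.00644% of all genes tested. With so few calls in the whole comparison, this count does not show that the markers were unchanged. The summed endothelial markers were at 352.6 to 429.3 CPM against 357.5 to 426.7 in controls, and the macrophage markers at 73.4 to 93.9 against 84.6 to 106.5. In bulk tissue, fewer cells of a type and less RNA per cell cannot be told apart.

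With 1 µM for 3 h no member was called by edgeR or by DESeq2, and 2 of 6 (Ahr and Cyp1a1) had an unadjusted p under 0.05, beside 5.19% of all genes. The share called in the whole table was 0% by both tools, none of 15446 genes in edgeR. Cyp1a1 had 4.36, 6.68, 7.73 and 9.40 CPM, against 14.3, 14.8, 18.9 and 5.42 in controls. It was below the control of its number in 3 of 4 replicates and above it in replicate 4. On the log2 scale the fold change was -0.88 (SE 0.329, edgeR adjusted p = 0.938). Cyp1b1 had 26.6, 28.0, 29.1 and 32.8 CPM, within the control range, and a log2 fold change of -0.10 (95% interval -0.36 to 0.16). Ahrr was close together at 4.53 to 4.78 CPM, just under the lowest control, with a log2 fold change of -0.37 (edgeR adjusted p = 0.947). Ahr had 17.8, 14, 15 and 15.4 CPM, above the control of its number in each replicate, and a log2 fold change of 0.32 (SE 0.139, edgeR adjusted p = 0.938). Tiparp, at 23.2 to 30.0 CPM, and Arnt, at 106.2 to 120.2 CPM, overlapped with their controls, with log2 fold changes of -0.10 and 0.03.

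Between the concentrations at 3 h, Cyp1b1 was 2.46-fold lower with 10 µM than with 1 µM, and the groups did not overlap (log2 fold change -1.30, SE 0.252, edgeR adjusted p = 0.256). Again no member was called by edgeR, where 0% of 16691 genes were called, and 2 of 6 had an unadjusted p under 0.05, beside 8.30% of all genes. DESeq2 called Cyp1b1 (adjusted p = 0.000172), beside 0.0116% of all genes. In the fit blocked by replicate number Cyp1b1 was called (-1.32, adjusted p = 0.0206; 0.0180% of all genes), and without all libraries numbered 3 as well (-1.44, adjusted p = 0.0308). For Cyp1a1 the log2 fold change between concentrations was -2.04 (95% interval -4.05 to -0.04, edgeR adjusted p = 0.602).

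**Figure D2:**
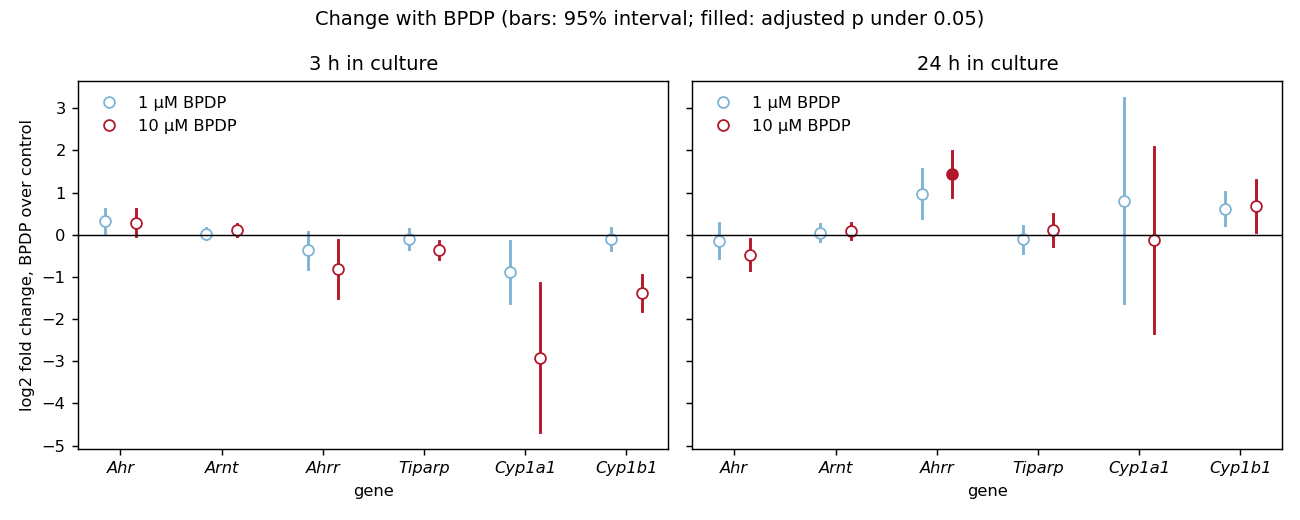
Log2 fold change of each gene with 1 or 10 µM BPDP over the control of the same time, at 3 h (left) and 24 h (right); bars are 95% intervals and filled points have an edgeR adjusted p under 0.05. Cyp1a1 and Cyp1b1 lie below 0 with 10 µM at 3 h (-2.92 and -1.39), and Ahrr with 10 µM at 24 h (1.44) is the only filled point.

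After 24 h with 10 µM BPDP, Ahrr rose, and it was the member called by edgeR of the 6, where 6.21% of 15508 genes were called. Its mean rose from 3.44 ± 1.45 to 9.14 ± 1.15 CPM (SD, n = 4). Cyp1b1 had a higher mean and Ahr a lower one without passing, and Cyp1a1, Tiparp and Arnt had intervals that included 0. In edgeR 3 of the 6 (Ahrr, Cyp1b1 and Ahr) had an unadjusted p under 0.05, beside 20.8% of all genes. DESeq2 called Ahrr and Cyp1b1, beside 9.39% of all genes, as did edgeR blocked by replicate number, beside 10.6%.

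Ahrr had 3.10, 5.51, 2.15 and 3.00 CPM in the 24 h controls. With 10 µM it had 9.64, 9.10, 10.3 and 7.57 CPM. The groups did not overlap, and control replicate 2 was the nearest to the treated libraries. The log2 fold change was 1.44 (SE 0.252, 95% interval 0.90 to 1.99), a 2.72-fold rise, with an edgeR adjusted p = 0.00478. The call held without any 1 of the 8 libraries (1.29 to 1.72, adjusted p = 0.00148 to 0.0209). Within replicates 3 and 4 it was 1.8 (adjusted p = 0.00961), and within replicates 1 and 2 it was 1.17 and was not called (adjusted p = 0.296). The authors' deposited table gives Ahrr a log2 fold change of 1.08 with an adjusted p of 2.97e-06.

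Cyp1b1 had 26.4, 40.7, 41.6 and 29.3 CPM in the 24 h controls and 33.9, 45.6, 80.9 and 57.5 CPM with 10 µM. Every treated library exceeded the control of its number, by 1.28, 1.12, 1.94 and 1.96 times in replicates 1 to 4, while the groups overlapped. The log2 fold change was 0.68 (SE 0.273, edgeR adjusted p = 0.202). Blocked by replicate number it was called (0.63, adjusted p = 0.00824), beside 10.6% of all genes, and DESeq2 called it too (adjusted p = 0.0316). Within replicates 1 and 2 the log2 fold change was 0.28 (adjusted p = 0.723), and within replicates 3 and 4 it was 0.97 (adjusted p = 0.141).

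Cyp1a1 had 3.74, 4.09, 19.9 and 4.06 CPM in the 24 h controls and 0.753, 7.19, 13.7 and 7.76 CPM with 10 µM. Replicates 2 and 4 were above the control of their number and replicates 1 and 3 below it. On the log2 scale the fold change was -0.13, with a 95% interval of -2.34 to 2.08 that leaves room for large changes in either direction (edgeR adjusted p = 0.960). It changed sign without control replicate 3 (0.93, adjusted p = 0.599) or without 10 µM replicate 1 (0.26, adjusted p = 0.908).

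Ahr had 23.8, 16.5, 16.1 and 15.9 CPM in the 24 h controls and 13.8, 11.1, 14 and 12.8 CPM with 10 µM. All treated libraries lay below all controls, 3 of which were close together with replicate 1 above them. The log2 fold change was -0.47 (SE 0.171, edgeR adjusted p = 0.131), and without control replicate 1 it was -0.29 (adjusted p = 0.257). Control replicate 1 also stood apart in 12 genes induced by hypoxia-inducible factors, which summed to 2830 CPM there and to 763.8, 799.6 and 1736 CPM in replicates 2 to 4. The part of this in the level of Ahr was not tested. Tiparp (24.4, 25.8, 37.7 and 32.2 CPM against 35.5, 26.3, 22.5 and 28.0 in controls) and Arnt (121.9, 122.8, 122.1 and 115.1 against 118.0, 128.3, 92.9 and 116.7) overlapped with their controls, with log2 fold changes of 0.11 and 0.10.

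In the same comparison the cell type markers moved. Of 8 macrophage markers 7 were called lower with 10 µM at 24 h, beside 6.21% of all genes called in either direction. The list summed to 54.8 to 84.5 CPM against 167.3 to 226.2 in controls. Of 8 endothelial markers 4 were called lower, with list sums of 189.8 to 220.6 CPM against 285.5 to 340.5. Of 7 epidermis markers 2 were called lower, Krt5 (703.9 to 294.9 CPM) and Grhl3 (24.3 to 8.28 CPM). The list summed to 783.7 to 1116 CPM against 1255 to 2084. Every other marker of these 3 lists had a lower mean with 10 µM as well, without being called. These sums did not overlap between the groups in any of the 3 lists. In each of the perivascular, muscle and limb mesenchyme lists 1 marker was called lower, and none was called in the other lists. No marker of the macrophage, endothelial and epidermis lists was at 0 in any group. Their part in the levels of Ahr, Ahrr and Cyp1b1 at 24 h was not tested.

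With 1 µM for 24 h no member was called by edgeR or by DESeq2, against 0.0770% of 15578 genes called by edgeR, where DESeq2 called 0.371%. At an unadjusted p under 0.05 there were 2 of 6 (Ahrr and Cyp1b1), beside 5.89% of all genes. Ahrr had 5.18, 7.25, 6.90 and 7.62 CPM, each above the control of its number, and a log2 fold change of 0.97 (SE 0.267, edgeR adjusted p = 0.483). Cyp1b1 had 39.5, 48.0, 70.7 and 56.4 CPM, also above the control of its number in each replicate, and a log2 fold change of 0.62 (SE 0.178, edgeR adjusted p = 0.503). For Ahrr 1 control library, and for Cyp1b1 2, lay within the range of the treated libraries. Cyp1a1 had 3.23, 4.70, 39.5 and 10.7 CPM, a 12.2-fold range in which replicate 3 was far above the rest. Its log2 fold change of 0.81 had a 95% interval from -1.62 to 3.25, and without 1 µM replicate 3 it was -0.39 (edgeR adjusted p = 0.993). Ahr (11.8 to 21.5 CPM), Tiparp (23.7 to 28.4 CPM) and Arnt (116.5 to 120.8 CPM) overlapped with their controls, with log2 fold changes of -0.15, -0.11 and 0.05. The 1 and 10 µM comparisons share their control libraries, so their values are set side by side only.

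Between the concentrations at 24 h no member was called by edgeR (3.35% of 16691 genes were) or by DESeq2 (5.16%), and 0 of 6 had an unadjusted p under 0.05, beside 16.5% of all genes. Cyp1b1 was at 54.5 ± 20.1 CPM with 10 µM and at 53.7 ± 13.3 CPM with 1 µM, a log2 difference of 0.06 with a 95% interval of -0.43 to 0.54. For Ahrr the log2 difference was 0.47 (95% interval -0.07 to 1.01), for Ahr -0.33 (-0.68 to 0.01), and for Cyp1a1 -0.94 (-2.70 to 0.81).

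The effect of 10 µM differed between the times for 2 members, Ahrr and Cyp1b1, as tested by the difference of the effects in the fit of all 24 libraries, where 2.59% of genes were called. DESeq2 called the same 2 members, beside 4.60% of all genes. At an unadjusted p under 0.05 there were 5 of 6, beside 14.3%. For Cyp1b1 the effect was 2.07 higher at 24 h than at 3 h on the log2 scale (SE 0.346, edgeR adjusted p = 0.00110). For Ahrr it was 2.26 higher (SE 0.386, edgeR adjusted p = 0.000651). Both calls held in all 22 alternatives, with differences of 1.8 to 2.24 for Cyp1b1 and 2.02 to 2.54 for Ahrr. The difference was 2.79 for Cyp1a1, with a 95% interval of 0.13 to 5.45 (edgeR adjusted p = 0.314), and -0.76 for Ahr (edgeR adjusted p = 0.0911). For 1 µM no member was called by edgeR, against 0.0359% of genes, or by DESeq2 (0.0876%), and 2 of 6 had an unadjusted p under 0.05, beside 3.44% of all genes. Ahrr had a difference of 1.34 there (95% interval 0.55 to 2.12, edgeR adjusted p = 0.803).

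Between 3 and 24 h of culture without BPDP no member was called by edgeR, against 9.55% of 15640 genes. In this comparison 2 of 6 (Ahr and Ahrr) had an unadjusted p under 0.05, beside 24.6% of all genes, and DESeq2 called both, beside 12.9%. Ahr was above the range of the 3 h controls in all 4 libraries at 24 h, with a log2 fold change of 0.54 (SE 0.176, edgeR adjusted p = 0.0690, DESeq2 adjusted p = 0.0383). The log2 fold change of Ahrr was -0.82 (SE 0.286, edgeR adjusted p = 0.0899, DESeq2 adjusted p = 0.0431), and it was called by edgeR without 24 h replicate 2 (-1.09, adjusted p = 0.0265). Within replicates 1 and 2 it was -0.29 (adjusted p = 0.805) and within replicates 3 and 4 -1.40 (adjusted p = 0.0273). Cyp1a1 had a log2 fold change of -0.68 (SE 0.680, edgeR adjusted p = 0.606). Without 24 h control replicate 3 it was -1.72 and was called (adjusted p = 0.00594), and without all libraries numbered 3 it was -1.52 (adjusted p = 0.0178).

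With 10 µM, 3 of the 6 members rose between 3 and 24 h, in a contrast in which 28.1% of 16691 genes were called. DESeq2 called the same 3, beside 26.7% of all genes, and 4 of 6 had an unadjusted p under 0.05, beside 38.3%. Cyp1b1 rose from 12.7 to 54.5 CPM (log2 fold change 2.21, SE 0.254, edgeR adjusted p = 9.73e-07), and Ahrr from 3.65 to 9.14 CPM (1.44, SE 0.274, adjusted p = 0.000198). Tiparp rose from 23.1 to 30.0 CPM (0.48, SE 0.137, edgeR adjusted p = 0.00960). That last call was lost when total counts alone set the scale (adjusted p = 0.0503), without 10 µM at 24 h replicate 3 (0.33, adjusted p = 0.0729) and without all libraries numbered 3 (0.36, adjusted p = 0.101). Cyp1a1 had a log2 fold change of 2.11 (edgeR adjusted p = 0.112), and was called with the replicate number as a block (2.16, adjusted p = 0.0241), beside 30.6% of all genes. In all, 2 of 14 alternatives called Cyp1a1 here, including that block. With 1 µM, 1 of 6 was called by edgeR, against 19.9% of genes, and the same 1 by DESeq2 (20.8%) and at an unadjusted p under 0.05 (31.5%): Cyp1b1 rose from 29.1 to 53.7 CPM (0.85, SE 0.239, edgeR adjusted p = 0.0144), a call lost without 1 µM at 24 h replicate 3 (0.71, adjusted p = 0.0561).

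**Figure D3:**
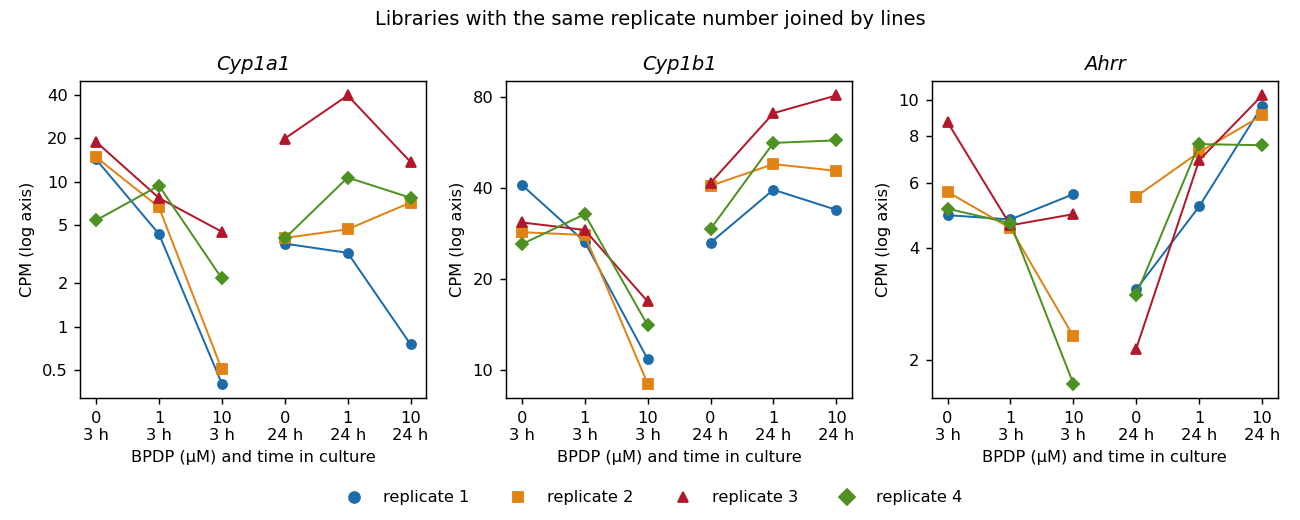
CPM of Cyp1a1, Cyp1b1 and Ahrr on a log axis, with libraries of the same replicate number joined across concentrations (0, 1 and 10 µM BPDP) within each time. Replicate 3 had the highest Cyp1a1 in 5 of 6 groups and replicate 1 the lowest in 5 of 6; every replicate number had its lowest Cyp1b1 at 10 µM and 3 h.

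The spread within groups was not alike for the 6 genes. The SD of Cyp1a1 was between 30.0% and 116.6% of the group mean, that of Cyp1b1 between 9.10% and 36.9%, and that of Arnt between 1.55% and 13.1%. Cyp1a1 was highest in replicate 3 in 5 of 6 groups and lowest in replicate 1 in 5 of 6. Cyp1b1 was highest in replicate 3 in 4 groups and lowest in replicate 1 in 4, and Ahr was highest in replicate 1 in 4. What the libraries of one number share is not stated in the labels, and the part of a shared source in these levels was not tested.

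Across the 24 libraries the genes most like each member were taken by Pearson correlation of log2 CPM among 11301 genes. The points share library, replicate number and group, so the values are descriptions. Cyp1b1 was the second most like Cyp1a1 (r = 0.72), after Ccs (0.73) and before Rit1 (0.70). Most like Cyp1b1 were Cap1 (0.85), Bdh1 (0.84) and Srpr (0.84). For Ahrr they were Phka2 (0.79), F3 (0.77) and Mras (0.76), for Ahr St8sia4 (0.79), Fzd6 (0.77) and Plch2 (0.77), for Arnt Uggt2 (0.77), Dock5 (0.76) and Dst (0.74), and for Tiparp Josd1 (0.72), Zfp330 (0.71) and Chmp2b (0.69). No other member was among the 3 most like Cyp1b1, Ahrr, Ahr, Arnt or Tiparp.

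Of 4 genes of the receptor's cytoplasmic complex (Hsp90aa1, Hsp90ab1, Ptges3 and Src) none was called in any comparison with control. The share of all genes called there was 0% and 0.00644% at 3 h with 1 and 10 µM, and 0.0770% and 6.21% at 24 h. The median log2 fold changes of the 4 genes lay between -0.06 and 0.06, beside medians of -0.02 to -0.00 over all genes tested. Hsp90ab1, the constitutive form of the HSP90 chaperone, had group means of 2871 to 3384 CPM. Ptges3 was at 245.1 ± 29.4 CPM with 10 µM against 264.5 ± 7.02 in controls at 3 h, and at 201.3 ± 14.3 against 227.6 ± 42.7 at 24 h. Between 3 and 24 h Hsp90aa1 fell with 1 µM (log2 fold change -0.42, edgeR adjusted p = 0.00411) and with 10 µM (-0.36, adjusted p = 0.00990). The shares of all genes called there were 19.9% and 28.1%. Without BPDP the mean of Hsp90aa1 was lower at 24 h too, from 430.9 CPM at 3 h to 362.7 CPM (-0.23, adjusted p = 0.258). In that comparison 9.55% of all genes were called. It was a fit of 8 libraries and the contrasts with BPDP came from the fit of all 24, so these calls are set side by side only.

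Of 9 further genes known as receptor targets elsewhere, 3 passed the filter in each comparison with control save 1 µM at 24 h, where 4 did. Cyp1a2, Gsta1, Gsta2 and the 2 Ugt1a6 genes had group means under 1 CPM. Scin, which codes for the actin-severing protein adseverin, rose with 10 µM at 24 h, from 22.7 ± 5.81 to 32.6 ± 4.98 CPM (log2 fold change 0.54, SE 0.15, edgeR adjusted p = 0.0498), just inside the threshold. The share of all genes called there was 6.21%. With 1 µM at 24 h Scin was at 32.8 CPM and was not called (0.52, edgeR adjusted p = 0.483). It rose in controls between 3 and 24 h too, from 13.6 ± 2.32 to 22.7 ± 5.81 CPM (0.75, adjusted p = 0.0111). Nqo1, a quinone reductase induced by both this receptor and NRF2, was lower with 10 µM than with 1 µM at 24 h (10.9 ± 0.998 against 17 ± 3.09 CPM, log2 fold change -0.62, edgeR adjusted p = 0.0203), and its controls lay between, at 13.0 ± 2.78 CPM. With 10 µM at 3 h it was at 9.14 ± 0.917 against 9.0 ± 1.55 CPM. Aldh3a1, an aldehyde dehydrogenase, was at 0.263 ± 0.0980, 0.511 ± 0.108 and 0.765 ± 0.304 CPM at 24 h in the control, 1 and 10 µM groups and failed the filter in the comparison of 10 µM with control. Nfe2l2, the gene of NRF2, stayed between 36.2 and 41.8 CPM in all 6 group means.

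**Figure D4:**
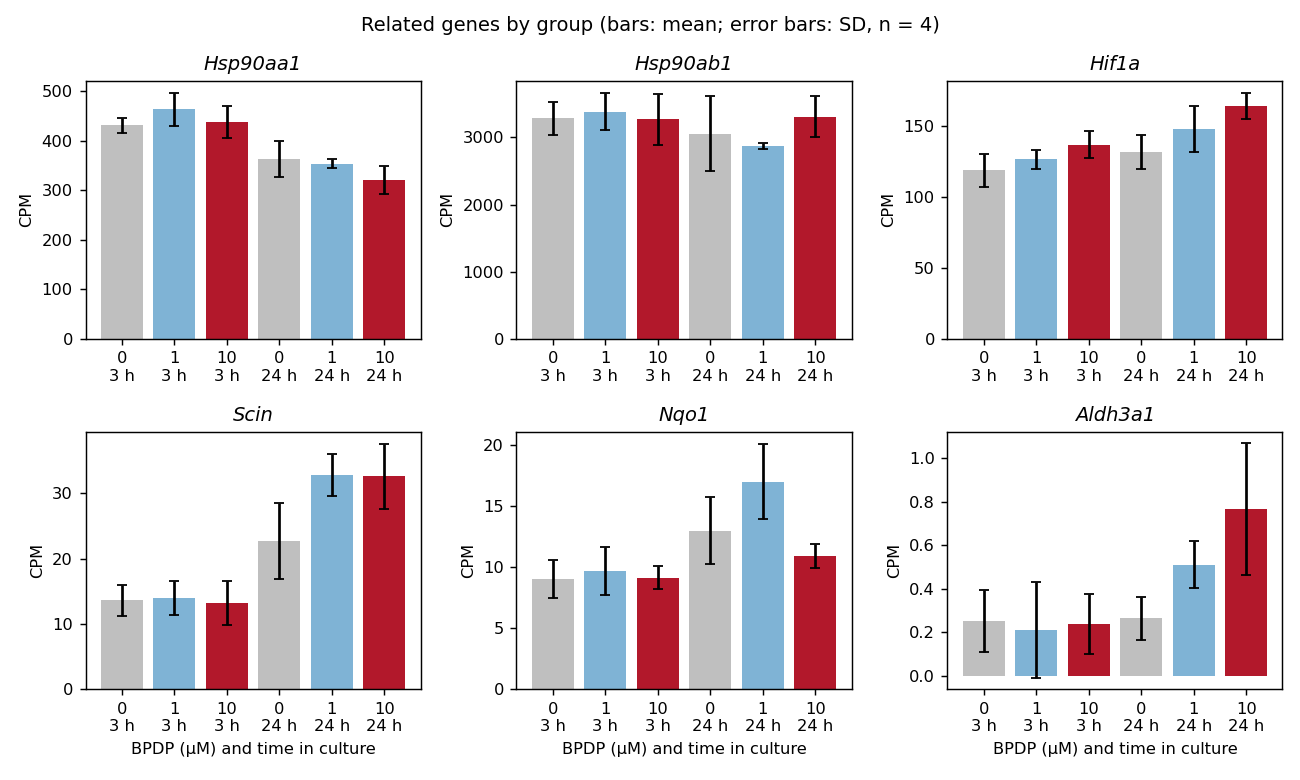
Mean CPM of 6 related genes by BPDP concentration and time in culture, with SD over 4 libraries; each axis has its own scale and bars start at 0. Hsp90aa1, with group means of 320.2 to 463.1 CPM, and Hsp90ab1, with 2871 to 3384 CPM, are chaperones of the receptor, Hif1a shares its partner, and Scin, Nqo1 and Aldh3a1 are receptor targets in other tissues.

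Among 13 relatives with the same bHLH-PAS fold, 12 were tested. Hif1a, the hypoxia-inducible factor that competes for ARNT, rose with 10 µM at 24 h from 131.1 ± 11.9 to 163.5 ± 9.16 CPM (log2 fold change 0.34, SE 0.0817, edgeR adjusted p = 0.0290). It was the 1 called of 12, beside 6.21% of all genes called in that comparison. Of the other 11, 8 had a log2 fold change above 0 and 3 below, and the median of the list was 0.30 against -0.02 over all genes tested. None of the 12 was called at 3 h with 1 or 10 µM or at 24 h with 1 µM, where 0%, 0.00644% and 0.0770% of all genes were called. Clock rose between 3 and 24 h in controls, from 24.6 to 35.2 CPM (0.54, adjusted p = 0.0230). Of the 12 hypoxia-inducible target genes none was called in any of the 11 comparisons, in which edgeR called from 0% to 28.1% of all genes. All 12 lay below 0 at 24 h with 1 and with 10 µM (medians -0.81 and -0.76), against controls in which replicates 1 and 4 were high, as given above. Of 11 enzymes of the tryptophan to kynurenine route, which makes natural ligands of the receptor, 6 passed the filter. None of these was called in a comparison with control, beside 0% to 6.21% of all genes. Ido1 was at or under 0.176 CPM in every library, and Tdo2 had group means between 0.147 and 0.322 CPM.

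Of 11 genes related to Tiparp within the PARP family, Zc3hav1, whose product binds viral RNA, rose with 10 µM at 24 h (10.7 to 16.7 CPM, log2 fold change 0.66, edgeR adjusted p = 0.0180), and no other was called there, beside 6.21% of all genes. Of 14 P450 and P450 partner genes, 10 were tested in that comparison and 2 were called. Cyp51 of sterol synthesis rose (113.3 to 164.3 CPM, 0.56, edgeR adjusted p = 0.00992) and Cyp26a1, which degrades retinoic acid, fell (3.24 to 0.598 CPM, -2.40, adjusted p = 0.00735).

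Some of these counts may include reads of neighbours, since the strand setting of the counting is not given in the sources used here. Tiparp overlaps the antisense gene 4931440P22Rik by 970 bases, which had 8 to 76 counts per library. Ahr overlaps the antisense gene Gm48236 by 618 bases, and the pseudogene Gm42672, of 352 bases, lies within Arnt.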

How the data were processed

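Poly-A RNA of 24 libraries was sequenced, 4 for each of 6 groups taken from the sample labels. The submitters' processing notes name mm10, STAR 2.5 and HTSeq 0.6.1, and also CASAVA 1.8 and DESeq2 (their version 2). The authors deposited 5 pairwise tables with raw read counts per gene and library, without normalization. The same tables hold the authors' log2 fold changes, p-values and adjusted p-values, named as theirs where printed, and gene lengths. Where printed, the authors' log2 fold changes lay nearer 0 than those of edgeR, and their sizes are not compared. Tables were joined by gene identifier (561016 shared counts compared, 0 differed). The authors also deposited FPKM values and, as a normalized signal, means of scaled counts per group, per the file headers; these 50 columns were left unused. The labels do not state the strand setting or the annotation.

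Each treated group and the 24 h control were compared in fits of 8 libraries, and contrasts across concentrations or times in 1 fit of all 24 libraries. Quasi-likelihood tests were run in edgeR 4.0.16 under R 4.3.3 (robust, TMM, filterByExpr with minimum count 10 and minimum total 15) and adjusted by Benjamini-Hochberg over all genes tested. It was checked on simulated data. Alternatives were other scalings, no filter, DESeq2 1.42.0, a replicate block, a term for replicates 1 and 2 against 3 and 4, fits within each of these pairs, a 24-library fit and leaving out each library. Leaving out all libraries numbered 3 was chosen after seeing the data.

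Replicate numbers were taken to pair libraries where residuals of same-numbered libraries correlated over 0.1 in all 4 pairs. This held for the 4 comparisons with control (0.106 to 0.361), but over the genes of the 24-library fit 10 µM at 3 h replicate 2 had 0.0802 and 1 µM at 3 h replicate 4 had 0.0951. It also held between concentrations (lowest 0.118 at 3 h and 0.197 at 24 h) and over time with 1 µM (lowest 0.124) and 10 µM (lowest 0.146). In each of these contrasts not all libraries correlated most with the library of their own number. The rule did not hold for controls over time (lowest 0.0854). Some treated libraries correlated more with a control of another number: 10 µM at 3 h replicates 1 and 2, 10 µM at 24 h replicate 1 and 1 µM at 3 h replicate 4. The main tests held no term for the replicate number, also in the 4 comparisons with control. The number entered only as the block among the alternatives. With that block edgeR called 2.16% of all genes for 10 µM at 3 h and 10.6% for 10 µM at 24 h. Without it the main tests called 0.00644% and 6.21%.

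The members and gene lists were chosen with earlier results of these data known. All members could be named, as could the measured genes of the lists of receptor chaperones (1 gene is not reported here), other receptor targets, bHLH-PAS relatives and kynurenine enzymes. Of other lists up to 4 called genes per comparison could be named, and the 3 genes most like each member (mean CPM of at least 5, prior count 2). Listed symbols missing from the tables were matched by identifier through the reference gene names. The precision of a fold change is given by its standard error.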

Additional observations from a re-analysis of the deposited data

Results flagged for a closer look

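In 36 groups of 4 libraries (6 genes in 6 groups) 3 had a library far from the other 3, where chance flags about 1 group in 20. Ahr was 23.8 CPM in control replicate 1 at 24 h, above the other 3 controls. Cyp1a1 was 19.9 CPM in control replicate 3 at 24 h, against 3.74 to 4.09 CPM in the others. Arnt was 115.1 CPM in replicate 4 with 10 µM at 24 h, below the other 3.

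The effect of 10 µM BPDP differed between 24 and 3 h, by the test of that difference, for Ahrr (2.26 on the log2 scale, edgeR adjusted p = 0.000651) and for Cyp1b1 (2.07, adjusted p = 0.00110). For Ahrr the effect was -0.82 at 3 h and 1.44 at 24 h, and for Cyp1b1 -1.39 and 0.68.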

How the results depend on the processing

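Of the alternatives run for single genes, 1034 kept direction and call, 31 gained a call, 5 lost it and 70 changed sign. For 10 µM at 3 h, where edgeR called 0 members, 1 was called without a filter, with the replicate block, with a pair term (replicates 1 and 2 or 3 and 4), within replicates 3 and 4 and in the 24-library fit, 2 within replicates 1 and 2, 3 by DESeq2, and 0 to 1 without 1 library. For 10 µM at 24 h, where 1 was called, it was 2 with the replicate block and by DESeq2, and 0 within replicates 1 and 2. For controls over time, where 0 were called, 1 was called with the replicate block (Ahr, adjusted p = 0.0307), with the pair term, within either pair of replicates and without all libraries numbered 3, 2 by DESeq2 and in the 24-library fit, and 0 to 1 without 1 library. Between concentrations at 3 h it was 1 with the replicate block, by DESeq2 and without libraries numbered 3. Over time with 1 µM it was 0 to 1 without 1 library. With the replicate block the difference of the 10 µM effects for Ahr was called (-0.75, adjusted p = 0.0341), beside the calls given above for Cyp1b1 and Cyp1a1, and the block changed no other call of a member. Over time with 10 µM, Cyp1a1 was called in 2 of 14 alternatives, including the block.

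Changes of sign were among values that were not called. Within replicates 3 and 4 the log2 values became 0.12 (Cyp1b1, 1 µM at 3 h), 0.18 and 0.01 (Ahr and Tiparp, 1 µM at 24 h), and -0.07 and 0.04 (Arnt and Cyp1a1, controls over time). Within replicates 1 and 2 they became -0.03 (Arnt, 1 µM at 24 h), 0.04 and -0.28 (Cyp1a1 and Tiparp, 10 µM at 24 h) and -0.05 (Cyp1b1, controls over time). Without libraries numbered 3 they became -0.01 (Arnt, 1 µM at 24 h), 0.42 and -0.11 (Cyp1a1 and Tiparp, 10 µM at 24 h), -0.01 (Cyp1b1, controls over time), 0.06 (Ahr, between concentrations at 3 h), -0.07 (Cyp1b1, the same at 24 h), -0.06 and -0.11 (Ahr and Cyp1a1, over time with 1 µM), -0.01 (Arnt, over time with 10 µM) and -0.07 (Arnt, difference of the 1 µM effects). With total counts alone they became -0.02 (Tiparp, controls over time), 0.07 (Ahr, between concentrations at 3 h), 0.02 (Tiparp, over time with 1 µM), -0.09 (Arnt, over time with 10 µM) and 0.03 (Tiparp, difference of the 1 µM effects). Tiparp became -0.00 with the replicate block (controls over time), and 0.01 over time with 1 µM with the size factors of DESeq2 and by DESeq2.

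Without 1 library the log2 values that crossed 0 ranged from -0.16 to 0.05 (Cyp1b1, 1 µM at 3 h), and at 24 h with 1 µM from -0.28 to 0.04 (Ahr), -0.02 to 0.09 (Arnt), -0.39 to 1.86 (Cyp1a1) and -0.19 to 0.05 (Tiparp). With 10 µM at 24 h they ranged from -0.63 to 0.93 (Cyp1a1) and -0.03 to 0.27 (Tiparp), and in controls over time from -0.01 to 0.10 (Arnt) and -0.15 to 0.09 (Tiparp). Between concentrations they ranged from -0.17 to 0.05 (Ahr, 3 h), -0.22 to 0.23 (Cyp1b1, 24 h) and -1.46 to 0.26 (Cyp1a1, 24 h). Over time they ranged from -0.07 to 0.18 (Ahr), -0.19 to 1.33 (Cyp1a1) and -0.05 to 0.05 (Tiparp) with 1 µM, and from -0.02 to 0.05 (Arnt) with 10 µM. Differences of effects ranged from -0.05 to 0.06 (Arnt) and -0.09 to 0.14 (Tiparp) for 1 µM, and from -0.09 to 0.03 (Arnt) for 10 µM. The cause of these changes was not tested.

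The number of genes called in the whole table ranged from 1 to 450 for 10 µM at 3 h, 6 to 1870 for 10 µM at 24 h, 0 to 95 for 1 µM at 24 h, 0 to 2 for 1 µM at 3 h and 44 to 2739 for controls over time. It ranged from 172 to 841 between concentrations at 24 h, 0 to 3 at 3 h, 2013 to 3788 over time with 1 µM, 3214 to 5114 with 10 µM, and 1 to 16 and 189 to 681 for the differences of the 1 and 10 µM effects. Total counts alone changed the calls of 10 µM at 24 h from 430 higher and 533 lower to 287 and 537. No member fell below the filter, so the test planned for such genes was not run. At 7 and 10 counts, Cyp1a1 with 10 µM at 3 h is limited by depth.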
